A study of Mus musculus with 8 samples.

Results

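The genes described here are the protein-coding genes of the kinesin, cytoplasmic dynein and dynactin families, the subunits of the motors that run along microtubules. They were chosen by symbol alone, as genes whose names start with Kif, Kifc or Klc and a digit, or with Dync, Dynl or Dctn. The rule gave 68 genes of the 55401 in the count table. RNA immunoprecipitation (RIP) sequencing was done on tissue labelled hippocampus from C57BL/6 mice. In RIP an antibody is used to pull a protein from a lysate, and the RNA that comes along is sequenced. The CaMKIIβ RIP group has 3 libraries from pulls with an antibody to CaMKIIβ, a subunit of a calcium-activated kinase that is abundant at synapses. The IgG RIP group has 3 from pulls with IgG as control antibody, and the Input group has 2, made from RNA of the starting lysate. No genetic change, treatment, age or sex is given in the labels used here, and they do not say whether the libraries of a group came from separate animals, so p-values measure the spread between these libraries, which may be technical.

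Kinesins mostly walk toward the plus ends of microtubules, which in axons point away from the cell body, and carry vesicles, mitochondria, proteins and RNA granules outward. Cytoplasmic dynein 1 walks toward minus ends and returns cargo to the cell body. It is built on a heavy chain that holds the motor domain, with intermediate, light intermediate and light chains around it, and dynactin, together with cargo adaptors, switches it into its processive form. Neurons rely on these motors to supply axons and dendrites, and several of the motor transcripts are themselves long and abundant in brain.

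The libraries held 17273957 to 28138289 counts. At least 1 count was seen for 58 of the 68 genes in CaMKIIβ RIP replicate 2, which stood apart from the other libraries, and for 62 to 67 in each of the other 7. Markers of the labelled tissue were checked. The summed level, as CPM, of 6 hippocampal neuron markers was 278 to 296 in Input, 335 to 338 in IgG RIP and 297 to 355 in CaMKIIβ RIP. For 6 markers of cerebellar granule cells it was 3918 to 4039, 6379 to 6786 and 6132 to 6953, and for 5 oligodendrocyte markers 5359 to 5361, 8932 to 9549 and 9416 to 9671. All markers on these 3 lists had a count in every library. Cells of the cerebellum, which the label does not name, thus left their markers in every library, and the part of such cells in the motor values was not tested. In bulk RNA fewer cells of a type and less RNA per cell cannot be told apart.

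Within Input, the most abundant motor transcripts per kilobase of exon were mostly those of axonal cargo motors. Levels are given as CPM on a common TMM scale (scaled CPM), and different genes are compared only after division by exon length. Kif5c, a neuronal heavy chain of conventional kinesin, stood at 143 and 147 scaled CPM per kb in the 2 Input libraries, and its neuronal relative Kif5a at 131 and 127. Kif1a, the motor of synaptic vesicle precursors, had a mean of 123 ± 4.48 (SD, n = 2). The light chain Dynll2, shared by dynein and by other complexes, stood at 102 and 123, so Kif1a and Dynll2 overlapped, while both libraries of Kif5a lay above those of Kif1a and both of Kif5c above those of Kif5a. Kif1b followed at 79.7 and 78.9, Dync1h1 at 67.4 and 63.9, Klc1 at 57.0 and 52.9 and Dctn1 at 53.2 and 48.3, of which Klc1 and Dctn1 overlapped. Kif5b, the conventional kinesin heavy chain found in most cell types, was 13th, with a mean of 32.6 ± 1.10 scaled CPM per kb (SD, n = 2).

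The order was different after immunoprecipitation with either antibody. Kif1a was first in IgG RIP at 379.9 ± 23.6 scaled CPM per kb (SD, n = 3) and first in CaMKIIβ RIP at 349 ± 43.8. Dync1h1 was next, with 238 ± 13.9 and 243 ± 27.2. Kif5c, first in Input, held 154 ± 3.17 in IgG RIP and 169 ± 20.3 in CaMKIIβ RIP, below Kif5a and Kif1b in the mean of either group, although the libraries of Kif5c, Kif5a and Kif1b overlapped in CaMKIIβ RIP.

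**Figure D1:**
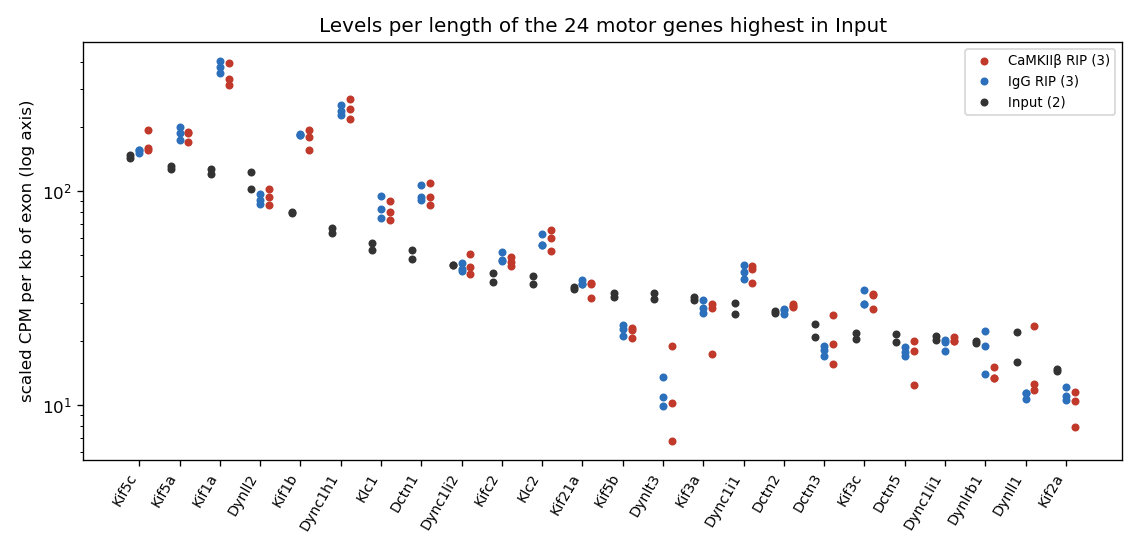
Scaled CPM per kilobase of exon (log axis) of the 24 motor genes with the highest Input means, ordered by that mean, with 1 point per library for Input (2), IgG RIP (3) and CaMKIIβ RIP (3). Kif1a and Dync1h1 lie above all their Input points in every RIP library, while Dynlt3 and Kif5b lie below theirs.

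At the other end, some members were barely detected. Kif2b, a microtubule depolymerizer, had 0 counts in all 8 libraries, where 3 counts, the limit that a count of 0 allows, correspond to 0.112 to 0.174 scaled CPM. Kif12, Kif28 and Dynlrb2 also stayed under the count filter in all comparisons, and the mitotic Kif14 and the depolymerizer Kif2c stayed under it in the comparisons that used the CaMKIIβ libraries. The summed level of 7 markers of dividing cells was 9.82 to 9.97 in Input. Of the 68 genes, 64 were tested between IgG RIP and Input, and 62 in either comparison that used CaMKIIβ RIP.

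Motor genes took a larger part of the counts after immunoprecipitation. They held 1.07% and 1.05% of all counts in the Input libraries and 1.65% to 1.81% in the 6 RIP libraries, and the 95% Wilson interval of each library, which covers counting error only, lay within 1.04% to 1.07% in Input and within 1.65% to 1.82% in RIP. Much of the difference lay in 3 genes. Kif1a, Kif1b and Dync1h1, chosen after their values were seen, made up 36.7% and 37.4% of motor counts in Input and 56.1% to 59.96% in RIP. Without them, the other 65 genes held 0.663% and 0.667% of counts in Input and 0.704% to 0.737% in RIP, so that the shares still did not overlap but lay closer.

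Levels in RIP were compared with Input for each antibody, which asks whether a transcript took a larger or smaller place in the immunoprecipitate than in the starting RNA. Values are relative to the other transcripts of a library, so the amount of RNA that an antibody recovered is not measured. With IgG, 23 of the 64 tested motor genes were higher than in Input and 8 were lower at an adjusted p under 0.05 (edgeR's quasi-likelihood test, Benjamini-Hochberg adjustment over all genes). Among all 22342 genes tested, 38.7% passed, 20.1% higher and 18.7% lower, to set beside 35.9% and 12.5% of the motor genes. Among protein-coding genes, as all motor genes are, 49.2% passed, 28.5% higher and 20.7% lower, so the share of motor genes called in either direction (48.4%) lay near that background. The shares were not tested against each other. The motor genes' median log2 fold change was 0.14, against -0.02 over all genes and 0.08 over protein-coding genes. With CaMKIIβ, 14 of 62 were higher and 2 lower, where 8.45% of 22095 genes passed, 5.06% higher and 3.4% lower, and the median was -0.01 against -0.12 over all genes. Of protein-coding genes 12.2% passed, 7.59% higher and 4.59% lower, to set beside 25.8%, 22.6% and 3.23% of the motor genes. These shares were not tested against each other either. The protein-coding median was 0.00, and the median of motor genes did not stand above it. Where average log2 CPM reached 1, the medians were 0.06 for motor genes and 0.03 for protein-coding genes. The RIP libraries lay wholly above Input for 27 motor genes and wholly below for 17 with IgG, where 26.8% and 33.8% of all genes did so (60.5% together), and for 22 and 12 with CaMKIIβ, where 18.8% and 28.6% did so (47.4% together). All 16 of the genes called with CaMKIIβ were also called with IgG, in the same direction. The comparisons share their Input libraries, so this is not independent evidence. The same overlap was not counted over all genes, so it has no background of its own.

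The number of calls depended on single libraries with CaMKIIβ. It was 0 without CaMKIIβ RIP replicate 1, 20 without replicate 2 (Dynlt3, Kif13a, Kif15 and Kif26a were gained) and 14 without replicate 3. Calls over all genes moved too, from 1868 in the main fit to 0, 4089 and 1882. With IgG the number of motor calls was 31 to 33 over the IgG RIP libraries left out in turn. Over all genes it was 8059 to 9017 there, against 8653 in the main fit. With either antibody the number of motor calls fell without either Input replicate. The split by direction depended on the scaling. Scaling to library totals moved the median of all genes from -0.02 to -0.25 with IgG and from -0.12 to -0.29 with CaMKIIβ. The motor calls were then 17 higher and 18 lower with IgG and 8 higher and 4 lower with CaMKIIβ. Over all genes they were 2714 higher and 6345 lower with IgG, and 683 higher and 1361 lower with CaMKIIβ. Depth and spread differed as well: the biological coefficient of variation over all genes was 0.115 in IgG RIP against Input and 0.477 in CaMKIIβ RIP against Input. The second value was 0.234 without CaMKIIβ RIP replicate 2, and 0.739 and 0.732 without Input replicates 1 and 2.

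**Figure D2:**
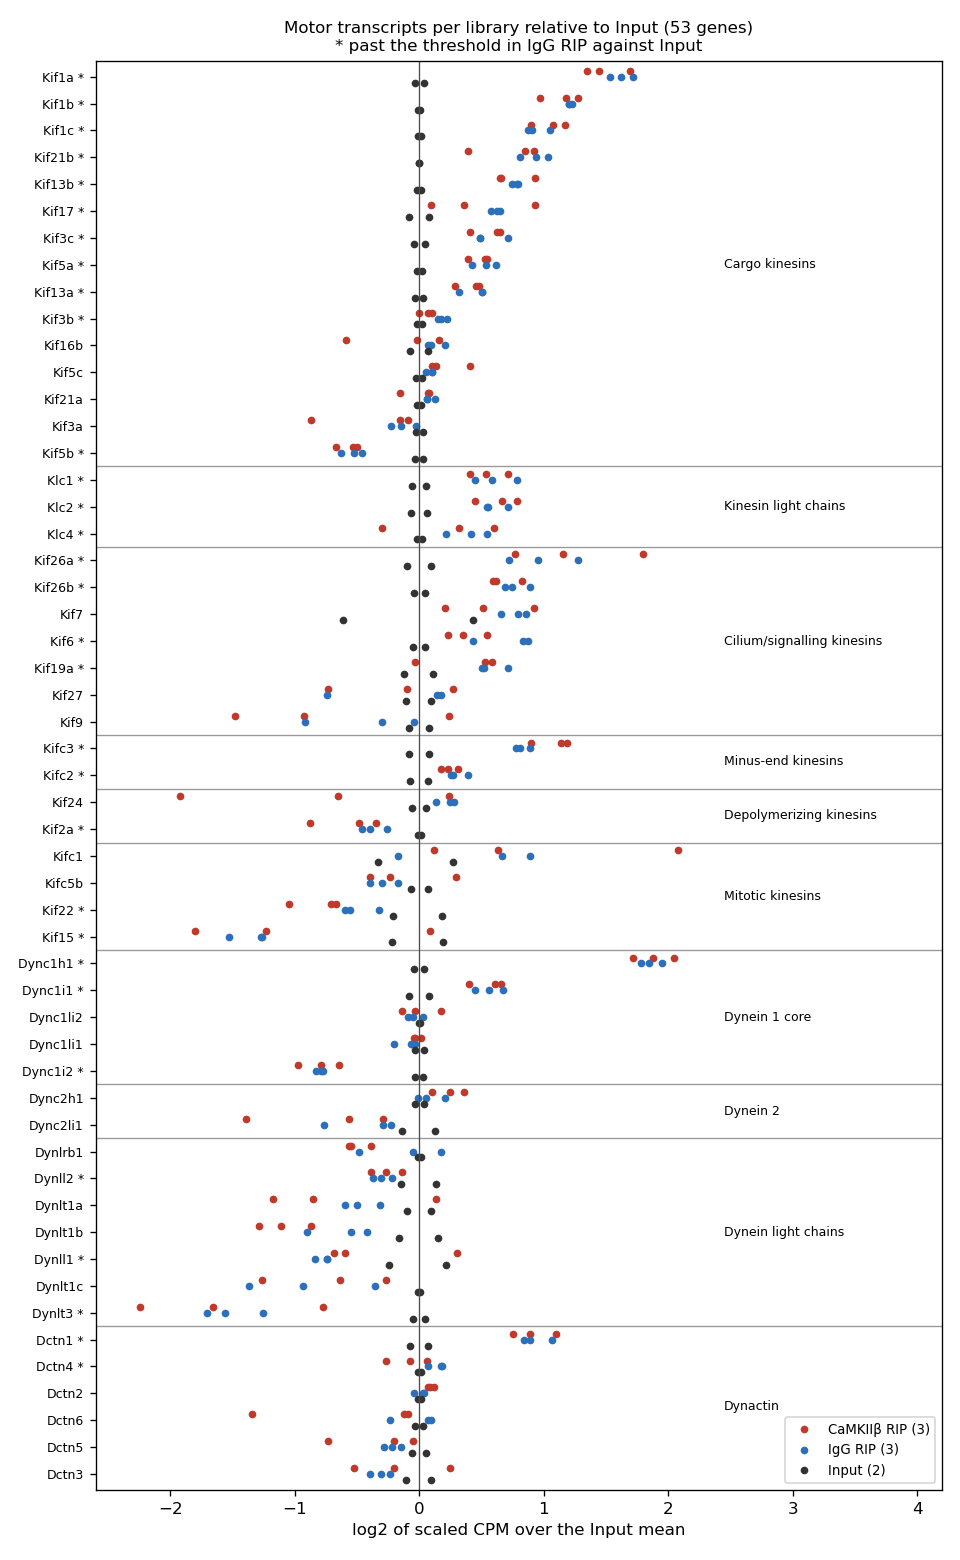
Level of 53 motor genes in each library as the log2 of scaled CPM over the Input mean, grouped by role, with points for Input (2), IgG RIP (3) and CaMKIIβ RIP (3) and an asterisk where IgG RIP against Input passed the threshold. The genes shown passed a floor of 1 in average log2 CPM in that fit. All 6 RIP points of Dync1h1, Kif1a and Kif1b lie well to the right of Input, and all 6 of Dynlt3, Dync1i2 and Kif5b to the left.

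Subunits of cytoplasmic dynein 1 did not move together. The heavy chain Dync1h1, which holds the motor domain, stood at 1055 and 1001 scaled CPM in Input, 3690, 3542 and 3969 in IgG RIP, and 4238, 3770 and 3389 in CaMKIIβ RIP. All 6 RIP libraries lay more than 3-fold above both Input libraries, and the RIP groups overlapped each other. Its log2 fold change against Input was 1.92 ± 0.06 (SE) with IgG (adjusted p = 9.95e-12) and 1.89 ± 0.12 with CaMKIIβ (adjusted p = 0.00275, edgeR), the largest of any motor gene in both comparisons. The heavy chain gene spans chr12:110601452-110666945 on the plus strand of GRCm38.p6, with 15658 bases of exon.

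The intermediate chains, which link the heavy chain to dynactin, went opposite ways. Dync1i1, the neuronal form, stood at 107 and 95.2 scaled CPM in Input, 149, 138 and 161 in IgG RIP, and 154, 133 and 159 in CaMKIIβ RIP. Dync1i2, the form found in most cell types, stood at 118 and 112 in Input, 64.7, 66.4 and 67.1 in IgG RIP, and 58.6, 66.6 and 73.5 in CaMKIIβ RIP. Neither gene's RIP libraries overlapped its Input libraries. The genes lie at chr6:5725639-6028039 (Dync1i1) and chr2:71211706-71263303 (Dync1i2), both on the plus strand. Dync1i1 was higher by 0.62 ± 0.08 on the log2 scale with IgG (adjusted p = 8.33e-06) and by 0.56 ± 0.13 with CaMKIIβ (adjusted p = 0.0435, edgeR), and Dync1i2 fell by 0.74 ± 0.07 (adjusted p = 3.98e-07) and by 0.79 ± 0.14 (adjusted p = 0.0184). The light intermediate chains, which bind cargo adaptors, did not pass. Dync1li1 stood at 77.5 and 81.4 in Input and 69.2 to 80.4 in the RIP libraries, and Dync1li2 at 272 and 270.4 in Input and 246 to 307 in RIP. Their 95% intervals with IgG ran from -0.21 to 0.13 for Dync1li1 and from -0.11 to 0.15 for Dync1li2 on the log2 scale. With library size scaling both were called lower with IgG, Dync1li1 at -0.27 (adjusted p = 0.0114) and Dync1li2 at -0.21 (adjusted p = 0.00758, edgeR).

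Dynein 2, the motor of retrograde transport in cilia, gave no call at the settings used. Its heavy chain Dync2h1 has an exon length of 16348 bases, close to that of Dync1h1. It stood at 119 and 125 scaled CPM in Input, 127, 141 and 121 in IgG RIP, and 131, 156 and 144 in CaMKIIβ RIP, where the groups overlapped with IgG and lay apart with CaMKIIβ. The fold change was 0.14 ± 0.08 with IgG (adjusted p = 0.159) and 0.24 ± 0.12 with CaMKIIβ (adjusted p = 0.324, edgeR). Without IgG RIP replicate 3 Dync2h1 passed with IgG, at 0.19 (adjusted p = 0.0473). Dync2li1, its light intermediate chain, was at -0.35 ± 0.22 and -0.67 ± 0.43, and with library size scaling it passed with IgG, at -0.58 (adjusted p = 0.0477, edgeR).

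The dynein light chains, small dimers that bind the intermediate chains and, for some, other partners, included no gene called higher. Of 8 tested, 3 were lower with IgG and 0 with CaMKIIβ (edgeR), where 2 had an unadjusted p under 0.05, DESeq2 called Dynlt3 and limma-voom called Dynlt3. Over all genes 20.1% were higher and 18.7% lower with IgG, and 5.06% and 3.4% with CaMKIIβ. Over protein-coding genes these shares were 28.5%, 20.7%, 7.59% and 4.59%. The difference of the light chains from them was not tested. Dynlt3, the light chain with the largest fall, stood at 80.4 and 85.9 scaled CPM in Input, 34.9, 25.4 and 28.2 in IgG RIP, and 26.3, 17.5 and 48.6 in CaMKIIβ RIP. All 6 RIP libraries lay below Input, with a wide spread in the CaMKIIβ group. Its log2 fold change was -1.44 ± 0.11 with IgG (adjusted p = 3.14e-08) and -1.43 ± 0.37 with CaMKIIβ, which did not pass (adjusted p = 0.0578, edgeR). It lies at chrX:9654267-9663003 on the minus strand.

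Dynll1 and Dynll2 encode the LC8 light chains, nearly identical proteins that act as dimerization hubs in many complexes. Dynll1 stood at 62.0 and 85.1 in Input, 44.1, 44.1 and 41.2 in IgG RIP, and 48.6, 90.6 and 45.6 in CaMKIIβ RIP. The high value was that of CaMKIIβ RIP replicate 2, the library that stood apart. Dynll1 fell by 0.72 ± 0.11 with IgG (adjusted p = 5.59e-05) and was at -0.25 ± 0.31 with CaMKIIβ (adjusted p = 0.753, edgeR). Its IgG call was lost in the fit of all 8 libraries. Dynll2, with 278 and 337 in Input and 235 to 279 in the RIP libraries, fell by 0.25 ± 0.08 with IgG (adjusted p = 0.0173), a call that was lost without IgG RIP replicate 1 (adjusted p = 0.106) or Input replicate 2 (0.522). The roadblock chain Dynlrb1 and the Dynlt1a, Dynlt1b, Dynlt1c and Dynlt1f genes, which are near-identical copies of each other so that reads may be split between them, did not pass in either comparison, although Dynlt1a, Dynlt1b and Dynlt1c were called lower with IgG under library size scaling (adjusted p = 0.0155, 0.0489 and 0.028, edgeR), and Dynlt1c without IgG RIP replicate 1 (0.0245).

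Dynactin, the cofactor of dynein, held a single large change. Dctn1 encodes p150, the subunit that reaches from the dynactin filament to microtubules and to the intermediate chain. It stood at 346 and 314 scaled CPM in Input, 614, 592 and 693 in IgG RIP, and 707, 611 and 558 in CaMKIIβ RIP, with no overlap with Input. Dctn1 was higher by 0.99 ± 0.07 with IgG (adjusted p = 2.26e-08) and by 0.92 ± 0.13 with CaMKIIβ (adjusted p = 0.0106, edgeR). Its gene lies at chr6:83165920-83200117 on the plus strand. The other dynactin genes showed smaller differences. Dctn4 was 0.20 ± 0.07 higher with IgG (adjusted p = 0.0299), a call lost without Input replicate 1 (adjusted p = 0.15) or Input replicate 2 (0.214), and with library size scaling its fold change was -0.029. Dctn2, Dctn3, Dctn5 and Dctn6, which encode dynamitin and other shoulder and filament subunits, ranged from -0.26 to 0.06 with IgG and from -0.41 to 0.09 with CaMKIIβ, with none past the threshold. With library size scaling Dctn3 (-0.48, adjusted p = 0.00439) and Dctn5 (-0.39, adjusted p = 0.00218, edgeR) were called lower with IgG.

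Among the filament subunits of dynactin and regulators of dynein that carry other names, 2 of 9 were higher and 4 lower with IgG, and 0 and 2 with CaMKIIβ. Over all genes the shares were 20.1% and 18.7% with IgG and 5.06% and 3.4% with CaMKIIβ. For protein-coding genes they were 28.5%, 20.7%, 7.59% and 4.59%, and the difference of the 9 genes from these was not tested. Of the 9, those lower with IgG were the capping protein subunits Capza2 (-0.98 ± 0.08) and Capza1 (-0.45 ± 0.10), the actin-related protein Actr10 (-0.77 ± 0.08) and Pafah1b1 (-0.53 ± 0.07), which encodes the dynein regulator LIS1. Those higher were Nde1 (0.78 ± 0.14), a partner of LIS1, and the capping subunit Capzb (0.49 ± 0.08). Actr1a, which encodes the Arp1 core of the filament, was at 0.17 ± 0.07 and did not pass (adjusted p = 0.0779, edgeR). With CaMKIIβ, Capza2 (-0.86 ± 0.20) and Actr10 (-0.75 ± 0.12) passed.

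More cargo kinesins were higher than lower in RIP. Of 15, 10 were higher and 1 lower with IgG, with a median log2 fold change of 0.58, and 7 were higher and 1 lower with CaMKIIβ, with a median of 0.49. Over all genes 20.1% were higher and 18.7% lower with IgG, and 5.06% and 3.4% with CaMKIIβ; for protein-coding genes the shares were 28.5%, 20.7%, 7.59% and 4.59%, and the difference of the group from these was not tested. The kinesin-3 motors of the Kif1 group rose most. Kif1a, which carries synaptic and dense-core vesicle precursors down axons, stood at 1179 and 1120 scaled CPM in Input, 3534, 3330 and 3769 in IgG RIP, and 3716, 2928 and 3132 in CaMKIIβ RIP. Every RIP library lay far above both Input libraries, and CaMKIIβ RIP replicate 2 was the lowest of the 6. Kif1a was higher by 1.68 ± 0.06 with IgG (adjusted p = 2.45e-11) and by 1.51 ± 0.13 with CaMKIIβ (adjusted p = 0.00369, edgeR). It lies at chr1:93015464-93101951 on the minus strand.

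Kif1b, a related carrier of vesicle precursors and mitochondria, stood at 1420 and 1405 in Input, 3254, 3252 and 3302 in IgG RIP, and 3419, 2761 and 3196 in CaMKIIβ RIP. Its fold change was 1.27 ± 0.06 with IgG (adjusted p = 8.18e-11) and 1.15 ± 0.12 with CaMKIIβ (adjusted p = 0.00487, edgeR). Kif1c, a more broadly expressed relative, also lay higher. It stood at 106 and 104 in Input, 196, 192 and 216 in IgG RIP, and 195, 221 and 236 in CaMKIIβ RIP, which gave 1.0 ± 0.07 (adjusted p = 1.39e-08) and 1.06 ± 0.13 (adjusted p = 0.00729, edgeR). For none of the 3 genes did a RIP library reach down to the Input levels.

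The heavy chains of conventional kinesin, kinesin-1, did not share a direction. Kif5a stood at 916 and 889 scaled CPM in Input, 1309, 1208 and 1387 in IgG RIP, and 1320, 1185 and 1303 in CaMKIIβ RIP. Kif5b stood at 254 and 266 in Input, 181, 189 and 168 in IgG RIP, and 164, 184 and 179.7 in CaMKIIβ RIP. Kif5c stood at 1020 and 1052 in Input, 1114, 1110 and 1073 in IgG RIP, and 1110, 1137 and 1374 in CaMKIIβ RIP. So the neuronal Kif5a was above Input in every RIP library, Kif5b was below Input in every one, and Kif5c lay slightly above. Kif5a was higher by 0.58 ± 0.06 with IgG (adjusted p = 1.74e-06) and 0.49 ± 0.10 with CaMKIIβ (adjusted p = 0.0263, edgeR), while Kif5b fell by 0.48 ± 0.07 (adjusted p = 1.69e-05) and by 0.56 ± 0.11 (adjusted p = 0.0238). Kif5c did not pass, at 0.14 ± 0.06 (adjusted p = 0.0613) and 0.22 ± 0.12 (adjusted p = 0.348), though with IgG it passed without IgG RIP replicate 3 (adjusted p = 0.0192) and with DESeq2 (0.0156) and limma-voom (0.0114).

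Kinesin-2, the heterotrimeric motor of cilia and of vesicles, showed a spread of its own. Kif3c, a neuronal subunit, was higher by 0.62 ± 0.08 with IgG and 0.57 ± 0.12 with CaMKIIβ (adjusted p = 4.61e-06 and 0.0322, edgeR), but 40.7% of its exon bases overlap exons of genes on the opposite strand, and whether reads were counted by strand is not given in the sources used here. Several other members share smaller parts of their exons with genes on the opposite strand, and their values carry the same limit. Kif3b was 0.24 ± 0.08 higher with IgG, a call lost without Input replicate 1 (adjusted p = 0.177) or replicate 2 (0.107). Kif3a, the partner of Kif3b and Kif3c in the motor, was at -0.08 ± 0.07 with IgG, and at -0.30 with library size scaling (adjusted p = 0.00389, edgeR). Kif17, a dendritic kinesin-2 reported to carry NMDA receptor vesicles, stood at 13.2 and 14.7 in Input, 21.8, 20.8 and 21.5 in IgG RIP, and 26.5, 17.8 and 14.9 in CaMKIIβ RIP. It was called with IgG (0.67 ± 0.13, adjusted p = 0.000404) and not with CaMKIIβ (0.51 ± 0.29, adjusted p = 0.382, edgeR), where its libraries spread more widely. The IgG call of Kif17 was lost in the fit of all 8 libraries.

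Of the remaining cargo kinesins, Kif13b, an endosome and vesicle motor, was higher by 0.83 ± 0.07 with IgG and 0.76 ± 0.13 with CaMKIIβ, and its relative Kif13a by 0.50 ± 0.08 with IgG, with 0.41 ± 0.12 and no call with CaMKIIβ (adjusted p = 0.0896, edgeR). Kif21b, a kinesin of dendrites that also restrains microtubule growth, stood at 82.7 and 82.6 in Input, 158, 145 and 169 in IgG RIP, and 157, 108 and 149 in CaMKIIβ RIP. It was higher by 0.98 ± 0.08 and 0.74 ± 0.18. Its paralog Kif21a, with 230.0 and 225 in Input and 205 to 248 in RIP, was at 0.14 ± 0.06 and 0.01 ± 0.12 and did not pass (adjusted p = 0.0861 and 0.988, edgeR). Kif16b, a motor of early endosomes, did not pass either.

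Kinesin light chains couple kinesin-1 to its cargo. Klc1, the main neuronal form, stood at 362 and 336 scaled CPM in Input, 525, 477 and 603 in IgG RIP, and 572, 507 and 463 in CaMKIIβ RIP, and Klc2 at 165 and 151, 232, 231 and 259.6, and 251, 273 and 216. Neither overlapped Input. Klc1 was higher by 0.67 ± 0.08 with IgG and 0.56 ± 0.12 with CaMKIIβ, and Klc2 by 0.66 ± 0.07 and 0.64 ± 0.13 (adjusted p at most 0.0353, edgeR). Klc4 was higher by 0.46 ± 0.13 with IgG, a call lost without either Input replicate (adjusted p = 0.0525 and 0.0891), and Klc3 did not pass with either antibody. The minus-end directed Kifc3 and Kifc2, kinesins that walk the way dynein does, were higher with IgG by 0.88 ± 0.10 and 0.37 ± 0.07, and Kifc3 with CaMKIIβ by 1.08 ± 0.17 (adjusted p = 0.0144, edgeR). The Kifc2 call was lost with library size scaling (0.14, adjusted p = 0.11) and in the fit of all 8 libraries (adjusted p = 0.0524).

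Among kinesins of cilia and signalling, 4 of 7 tested were higher with IgG and 1 with CaMKIIβ. Of all genes 20.1% and 5.06% were higher, and of protein-coding genes 28.5% and 7.59%. The difference of the group from these shares was not tested. Kif26b, an atypical kinesin without motor activity that acts in adhesion and polarity, stood at 184 and 173 in Input, 288, 300.5 and 331 in IgG RIP, and 317, 269.7 and 275 in CaMKIIβ RIP, and passed with both antibodies (0.83 ± 0.07 and 0.69 ± 0.12, adjusted p = 8.67e-08 and 0.018, edgeR). Its relative Kif26a stood at 6.05 and 6.92 in Input, 12.6, 10.7 and 15.7 in IgG RIP, and 14.4, 22.5 and 11.03 in CaMKIIβ RIP, above Input throughout, with its highest value in CaMKIIβ RIP replicate 2. The fold change was 1.06 ± 0.19 with IgG (adjusted p = 0.000242) and 1.30 ± 0.36 with CaMKIIβ (adjusted p = 0.0693, edgeR). Kif26a lost its IgG call in the fit of all 8 libraries. Kif6 and Kif19a, kinesins of motile cilia, were higher by 0.78 ± 0.24 and 0.64 ± 0.17 with IgG. Neither call held over all libraries left out: Kif6 lost it without Input replicate 1 (adjusted p = 0.141) or 2 (0.109), and Kif19a without Input replicate 2 (0.15). The summed level of 6 markers of ciliated ependyma was 65.9 to 72.6 CPM in Input, 72.9 to 82.9 in IgG RIP and 41.8 to 86.7 in CaMKIIβ RIP. The sum hides mixed markers. With IgG, Foxj1 (0.91 ± 0.19) and Hydin (0.62 ± 0.18) were called higher. Tmem212, with an Input mean of 0.929 scaled CPM, was called lower (-2.25 ± 0.76), and the other 3 were not called. The part of ependyma in the kinesin values was not tested.

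Among 12 mitotic kinesins tested with IgG, 2 were lower and 0 higher, and among 3 depolymerizing kinesins 1 was lower and 0 higher. With CaMKIIβ, 0 of 11 and 0 of 2 passed. Over all genes 18.7% were lower with IgG, and over protein-coding genes 20.7%, so the mitotic share (16.7%) lay near that background. Kif15, a mitotic kinesin that also restrains axon growth, stood at 5.94 and 4.47 scaled CPM in Input, 2.16, 1.81 and 2.17 in IgG RIP, and 1.49, 5.52 and 2.21 in CaMKIIβ RIP. The high CaMKIIβ value was again replicate 2. Kif15 fell by 1.28 ± 0.27 with IgG (adjusted p = 0.00112), a call lost without Input replicate 1 (adjusted p = 0.0607), and was at -0.76 ± 0.62 with CaMKIIβ (adjusted p = 0.579, edgeR). Kif22, a chromosome-binding kinesin, stood at 20.3 and 15.5 in Input, 14.3, 12.2 and 11.8 in IgG RIP, and 10.96, 11.3 and 8.67 in CaMKIIβ RIP. It fell by 0.43 ± 0.15 with IgG (adjusted p = 0.0346, edgeR), a call lost without IgG RIP replicate 2 (adjusted p = 0.0705), IgG RIP replicate 3 (0.087) or Input replicate 1 (0.509). Kif2a, which trims microtubule ends in axon branches, fell by 0.31 ± 0.08 with IgG (adjusted p = 0.00427) and was at -0.55 ± 0.17 with CaMKIIβ (adjusted p = 0.106, edgeR). Kif2a lost its IgG call in the fit of all 8 libraries. Dimt1, on the opposite strand, shares 19.2% of its exon bases.

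Genes that work with the motors were counted the same way. Of 31 cargo adaptors, 20 were higher and 6 lower with IgG, and 12 and 2 with CaMKIIβ, with medians of 0.52 and 0.42. The shares over all genes were 20.1% higher and 18.7% lower with IgG and 5.06% and 3.4% with CaMKIIβ, and over protein-coding genes whose average log2 CPM reached 1 they were 32.4% and 23.3% with IgG and 8.72% and 5.28% with CaMKIIβ. Bicd2, which joins dynein and dynactin to vesicles, was higher by 1.52 ± 0.07 with IgG and 1.57 ± 0.14 with CaMKIIβ. Mapk8ip2 and Mapk8ip3, JNK-interacting scaffolds that bind kinesin-1, were higher by 1.04 ± 0.07 and 0.82 ± 0.06 with IgG, and Htt, which encodes huntingtin, by 0.84 ± 0.06. Hook1 and Hook3, dynein adaptors of endosomes, went the other way, at -1.50 ± 0.09 and -0.59 ± 0.07 with IgG, as did Arl8b, a small GTPase that recruits kinesin to lysosomes, at -0.67 ± 0.06. Of 14 tubulins, the building blocks of the track, 11 were higher and 0 lower with IgG, against the same backgrounds, led by Tuba8 (0.77 ± 0.12), Tuba1b (0.74 ± 0.07) and Tubb2b (0.71 ± 0.09). With CaMKIIβ, Tubb2b (0.68 ± 0.14) and Tubb5 (0.51 ± 0.12) passed. The α- and β-tubulin genes are close copies of each other, so reads may be split between them.

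Ratios between related genes within a library do not depend on scaling, and they were taken for 15 pairs. The pairs and the gene placed on top were chosen after values were seen, so they are given as a description. Dync1i1 had 0.910 and 0.848 times the counts of Dync1i2 in Input, 2.31, 2.08 and 2.40 times in IgG RIP, and 2.62, 2.001 and 2.17 times in CaMKIIβ RIP, so the order of the intermediate chains by counts turned over. The ratio of Kif5a to Kif5b was 3.61 and 3.34 in Input, 7.23, 6.39 and 8.25 in IgG RIP, and 8.05, 6.45 and 7.25 in CaMKIIβ RIP. The heavy chains of similar exon length gave the widest gap: Dync1h1 over Dync2h1 was 8.85 and 8.01 in Input, 29.1, 25.1 and 32.7 in IgG RIP, and 32.4, 24.1 and 23.5 in CaMKIIβ RIP. Kif21b over Kif21a was 0.360 and 0.367 in Input and 0.529 to 0.713 in RIP. For other pairs the groups overlapped. Klc1 over Klc2 was 2.20 and 2.22 in Input and 1.86 to 2.32 in RIP, and Dync1li2 over Dync1li1 was 3.51 and 3.32 in Input and 3.19 to 3.81 in RIP. In all, 12 of the 15 ratios in IgG RIP lay apart from Input and 3 overlapped. Of single genes, 60.5% of all those tested lay apart from Input with IgG. Ratios of other gene pairs were not taken, so the count of 12 has no background of its own.

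**Figure D3:**
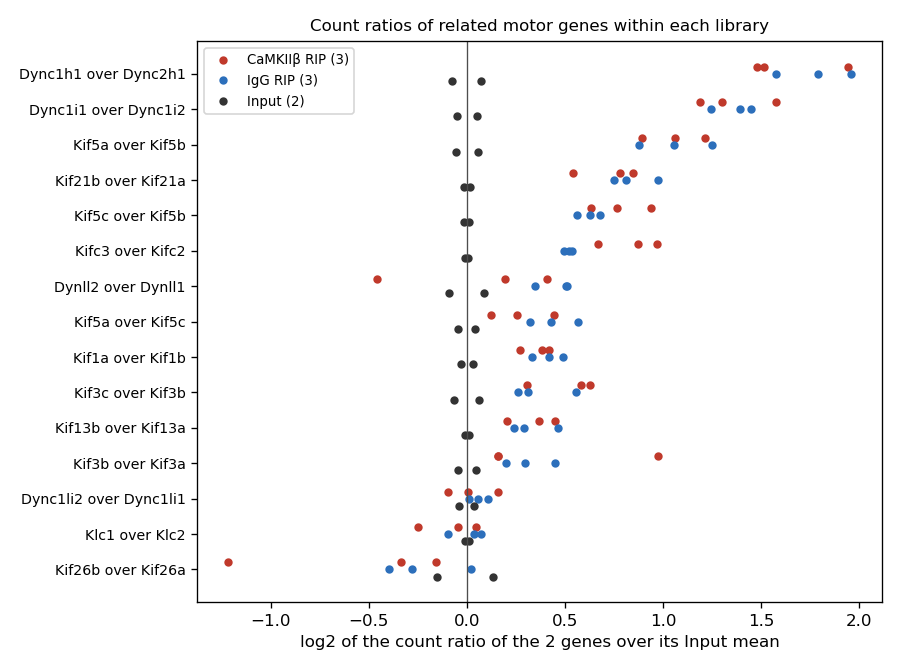
Count ratio of 15 pairs of related motor genes in each library, as the log2 of the ratio over its Input mean, with points for Input (2), IgG RIP (3) and CaMKIIβ RIP (3). Dync1h1 over Dync2h1 and Dync1i1 over Dync1i2 lie well above Input in all 6 RIP libraries, while Klc1 over Klc2 and Dync1li2 over Dync1li1 scatter around it.

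Longer motor transcripts tended to have the higher fold changes, with clear exceptions. Over 64 motor genes, Spearman's rho between exon length and log2 fold change was 0.29 with IgG, and 0.46 over the 53 whose average log2 CPM reached 1. Over 14599 protein-coding genes it was 0.09. With CaMKIIβ it was 0.31 over 62 motor genes. Fold changes also went with the level: rho between average level and log2 fold change was 0.43 over the 64 genes with IgG, 0.40 over the 53, and 0.49 over the 62 with CaMKIIβ. These points share their libraries and are not independent, so no p is given. With IgG, 0 of 4 motor genes under 2 kb of exon were called higher, 3 of 16 from 2 to 4 kb, 5 of 14 from 4 to 6 kb, 7 of 15 from 6 to 8 kb and 8 of 15 of 8 kb and over. The share of protein-coding genes called higher over the same classes was 11%, 21.7%, 31.2%, 36.0% and 42.4%. Lower calls made up 19.4%, 17.9%, 20.1%, 22.7% and 25.5% of protein-coding genes, and 0, 3, 1, 2 and 2 motor genes. Both kinds of call were thus most frequent among protein-coding genes of 8 kb and over. Among long genes, Dync2h1 was not called, Dctn4 was higher by 0.20 and Kif15 fell, Kif5b and Dync1i2 had about 8 kb of exon and fell, and Dync1i1 had 3572 bases and was higher. After removal of the trend on exon length, 29 motor genes passed with IgG and 16 with CaMKIIβ. Over all genes 8667 and 2016 passed then, against 8653 and 1868 before.

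**Figure D4:**
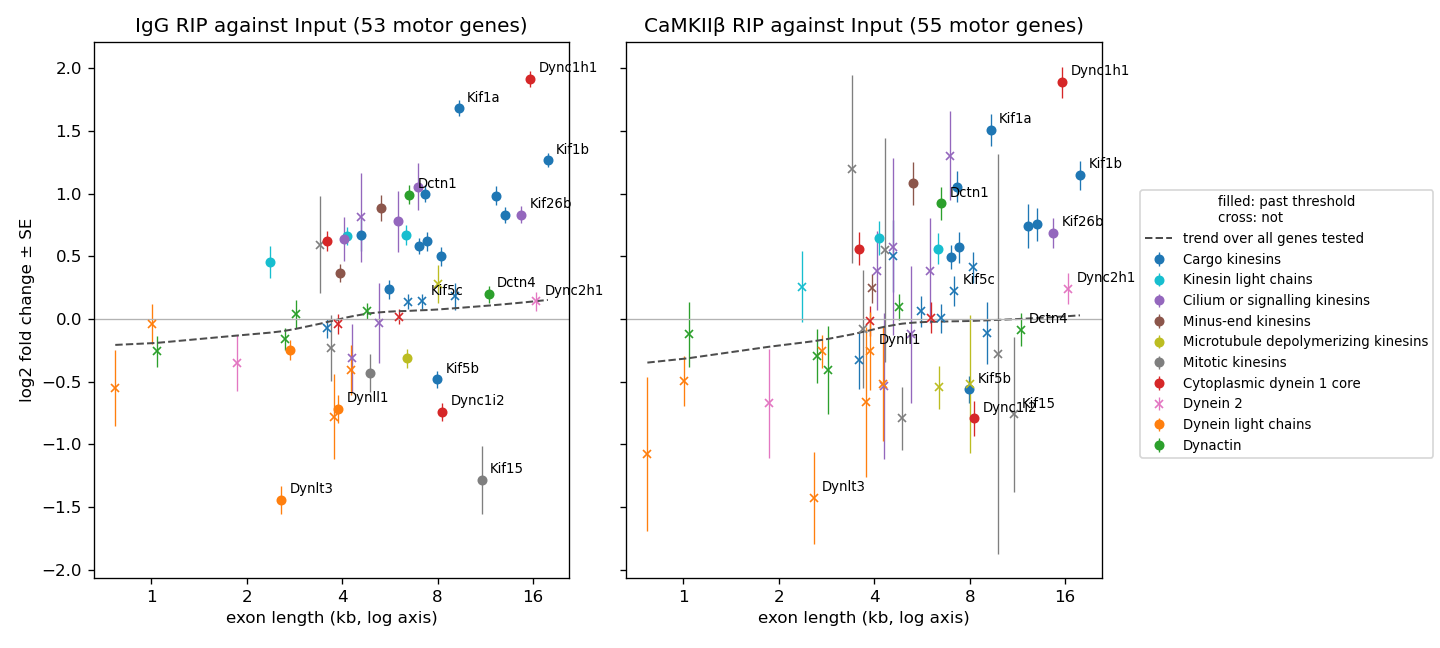
log2 fold change against Input with its SE, plotted by exon length (kb, log axis), for motor genes whose average log2 CPM reached 1, for IgG RIP (53 genes, left) and CaMKIIβ RIP (55 genes, right). Filled points passed the threshold and crosses did not, colours mark the role groups, and the dashed line is the trend over all genes tested. Dync1h1, Kif1a and Kif1b lie far above the trend and Dynlt3, Kif15, Dync1i2 and Kif5b below it.

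The direct comparison of the antibodies asks whether any motor transcript took a larger place in the CaMKIIβ pull than in the IgG pull. No motor gene passed: 0 of 62 were called with edgeR, and 0% of 20566 genes in all. At an unadjusted p under 0.05 there were 0 motor genes and 721 genes over the table. DESeq2 and limma-voom also called 0, with 1 motor gene each at an unadjusted p under 0.05. Fold changes ran from -0.90 (Kif18b) to 0.79 (Kif18a) around a median of -0.03, against -0.02 over all genes. Some of the genes that differed most from Input were close between the antibodies, and for others the interval was too wide to tell. The log2 fold change of Dync1h1 was 0.04, with a 95% interval from -0.17 to 0.25. It was -0.11 for Kif1a (-0.33 to 0.11), -0.05 for Kif1b (-0.25 to 0.14), -0.01 for Dctn1 (-0.24 to 0.23), 0.02 for Dync1i2 (-0.26 to 0.29) and -0.02 for Kif5b (-0.23 to 0.20). Wider intervals were those of Kif15 (0.59, -0.71 to 1.90), Dynll1 (0.53, -0.01 to 1.06) and Kif26a (0.31, -0.32 to 0.94). The same held for Dynlt3 (0.08, -0.63 to 0.78) and Kif22 (-0.30, -0.79 to 0.19). For 40 of the 62 genes the interval lay within 2-fold in either direction. The intervals of the other 22 reached past 2-fold in at least 1 direction.

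Libraries of the antibodies lay apart for 6 motor genes, 3 higher and 3 lower with CaMKIIβ, where 4.57% and 7.33% of all genes did so. Those higher were Dynll1, Kifc3 and Dctn2, and those lower were Dctn4, Kif3b and Kif22. Dynll1 had the smallest p of the motor genes, with 48.6, 90.6 and 45.6 scaled CPM in CaMKIIβ RIP against 44.1, 44.1 and 41.2 in IgG RIP. Its log2 fold change was 0.53 ± 0.24 (unadjusted p = 0.0521, adjusted p = 0.982, edgeR), and without CaMKIIβ RIP replicate 2 it was 0.14. Next came Kifc3, with 53.2, 51.5 and 43.5 against 40.0, 40.9 and 43.3, at 0.27 ± 0.13 (unadjusted p = 0.0705, adjusted p = 0.982, edgeR). Dctn4, with 119, 94.4 and 108 against 119, 129 and 128, was at -0.22 ± 0.11 (unadjusted p = 0.0779). Its highest CaMKIIβ library lay just under its lowest IgG library. Dynlrb1, with 15.1, 13.4 and 13.5 against 19.1, 14.1 and 22.4, was at -0.39 ± 0.21 (unadjusted p = 0.0927). For Kif24, a depolymerizing kinesin of centrioles with 11.7, 2.61 and 6.31 against 10.9, 12.1 and 11.8, it was -0.73 ± 0.43 (unadjusted p = 0.124), and -0.35 without CaMKIIβ RIP replicate 2. The adjusted p of each of the 62 genes was at least 0.982.

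The 15 motor genes called against Input with IgG alone therefore give no difference between the antibodies by this test. They were Dctn4, Kif13a, Kif17, Kif19a, Kif26a, Kif3b, Kif6, Kifc2 and Klc4 among those higher, and Dynll1, Dynll2, Dynlt3, Kif15, Kif22 and Kif2a among those lower. Role groups had medians between -0.45 (depolymerizing kinesins, 2 tested) and 0.21 (mitotic kinesins, 11 tested), with 0.04 for the dynein 1 core and -0.05 for cargo kinesins. The adaptors, the regulators of dynein and the tubulins also had 0 calls, with medians of 0.03, 0.04 and 0.05.

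**Figure D5:**
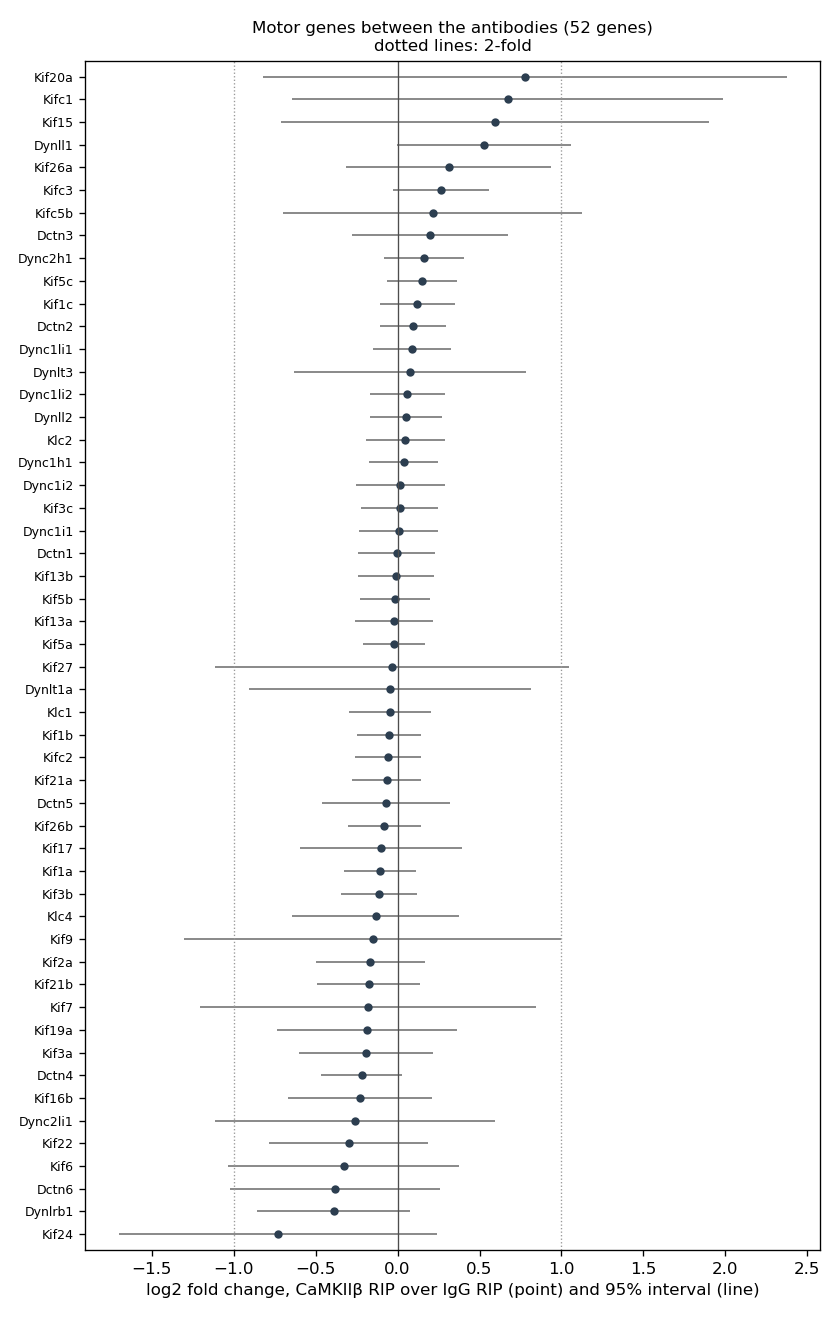
log2 fold change of CaMKIIβ RIP over IgG RIP (point) with its 95% interval (line) for the 52 motor genes whose average log2 CPM reached 1, ordered by the fold change, with dotted lines at 2-fold. All intervals include 0, and 40 of the 52 lie within the dotted lines.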

How the data were processed

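The values are raw gene counts of 8 libraries, as deposited by the authors. The submitters' processing notes name STAR 2.7.3a and featureCounts 2.0.1 with GRCm38.p6, and Trim Galore 0.6.4 with cutadapt 2.10. How strand, multiply placed reads and duplicates were treated, and which annotation was used, are not given in the sources used here. The deposited length column, the union of a gene's exons in bases, gave the per-kb levels, so a gene with long exons that are seldom used has its level understated. All 8 columns were mapped to libraries by name.

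Symbols came from RefSeq genes on GRCm38.p6 that shared at least 0.5 of the joint span with a gene of the table, each the best partner of the other, or at least 0.25 where each was the only partner (Dynll2 and Kif12). This matching was adopted once the table had been looked at. Names were found for 35669 of 55401 genes (96.8% of counts) and for all 68 motor genes. For each comparison, edgeR 4.0.16 (R 4.3.3) was run on the libraries of its groups, with TMM, filterByExpr at a minimum count of 10 and the robust quasi-likelihood F test, adjusted over all genes tested, with a threshold of 0.05. Scaled CPM used 1 TMM scale over the 8 libraries. The script was tested on simulated counts.

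The genes, the role groups and the pathway lists were chosen with earlier results of these data known. Genes to be described with every value were set by a rule: the dynein 1 heavy, intermediate and light intermediate chains, Dctn1, Kif1a and the Kif5 genes, the 6 largest rises and 6 largest falls with IgG whose average log2 CPM reached 1, and the 5 smallest p between the antibodies; values of other members were added afterwards. Alternative scalings were library size, RLE and upper quartile. The other alternatives were limma-voom (limma 3.58.1), DESeq2 1.42.0, dropping the count filter or asking for 10 counts throughout a group, all 8 libraries in 1 fit, a replicate block, removal of a loess trend on exon length, leaving out each library in turn, and a span match from 0.8 upward. The labels do not say whether a replicate number marks a shared animal. Deviations from the group mean of libraries with the same number correlated between -0.0625 and 0.086. With so few libraries in a group, these correlations cannot show whether the libraries were paired. No sequences are printed, since transcript and protein sequences of these genes were not used here.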

Additional observations from a re-analysis of the deposited data

How the results depend on the processing

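CaMKIIβ RIP against IgG RIP gave 0 motor genes under every alternative run, with 0 to 6 at an unadjusted p under 0.05. CaMKIIβ RIP against Input gave 16 and ranged from 0 to 20 over the CaMKIIβ RIP libraries left out in turn. Calls over all genes ranged there from 0 to 4089. The motor count was 0 without CaMKIIβ RIP replicate 1, fell without either Input replicate, and was 12 to 23 elsewhere. In those other fits the same 16 genes were kept, except with library size scaling (10 kept) and without CaMKIIβ RIP replicate 3 (13 kept). IgG RIP against Input gave 31 and ranged from 25 to 33 over the libraries left out. It fell to 18 in a fit of all 8 libraries, and the cause was not tested. Calls over all genes fell as well in that fit, from 8653 of 22342 to 3676 of 23108. The 13 motor genes that lost their call there were Dctn4, Dynll1, Dynll2, Kif15, Kif17, Kif19a, Kif22, Kif26a, Kif2a, Kif3b, Kif6, Kifc2 and Klc4. The replicate block gave 0, 23 and 35 calls in the 3 comparisons, and 0, 4205 and 8931 over all genes. Whether the replicate numbers pair the libraries is not given in the labels. With library size scaling, IgG RIP against Input gave 17 higher and 18 lower calls, and 2 genes turned: Dync1li2 from 0.02 to -0.21 and Dctn4 from 0.20 to -0.029. Under all alternatives other than the stricter span match, 18 of the 31 IgG calls were kept, among them Dync1h1, Kif1a, Kif1b, Kif1c, Dctn1, Dync1i1, Dync1i2, Kif5a, Kif5b and Dynlt3. For 22 genes the interval between the antibodies reached past 2-fold; the part of depth in this was not tested.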
